A study of Mus musculus with 24 samples.

Results

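The genes described here are 41 enzymes and regulators of antioxidant defence: the transcription factor NRF2 and its inhibitor KEAP1, enzymes that NRF2 is known to switch on, the makers of glutathione, the peroxiredoxins and thioredoxins, the glutathione peroxidases, the glutathione S-transferases, the superoxide dismutases and catalase. They were taken by symbol from a table of 54532 mouse genes, and 41 of 41 were found. RNA sequencing had been done on inguinal white fat (iWAT), a depot under the skin, and on epididymal white fat (eWAT), a depot in the abdomen of male rodents. The C57BL6 mice were given AAV-irisin, an adeno-associated viral vector that carries the muscle hormone irisin, or AAV-GFP with the control protein GFP, and were kept for 18 weeks on HFD (high-fat diet) or on chow. In each depot there were 3 libraries of irisin mice on HFD, 3 of GFP mice on HFD, 3 of irisin mice on chow and 3 of GFP mice on chow, so that the 24 libraries form 8 groups. All mice carried an AAV, and the sources used here give no group without one. They also give neither the age of the mice, the dose, route and promoter of the vector, nor whether each library of a group is from its own mouse. The p-values therefore rest on the spread among libraries, which may be technical.

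NRF2, the product of Nfe2l2, is held in the cytoplasm by KEAP1, which marks it for destruction. Oxidants and electrophiles modify KEAP1, NRF2 then accumulates, pairs with small MAF proteins and binds the antioxidant response element in front of genes for haem breakdown, glutathione synthesis and thioredoxin recycling. Glutathione serves the peroxidases that remove peroxides and the transferases that attach it to lipid aldehydes and other reactive compounds. In white fat both adipocytes and macrophages use these enzymes.

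Levels are in FPKM (fragments per kilobase of gene, scaled by a factor per library that stands for its depth), a scale per gene length. Differences between groups are given as log2 fold changes ± SE, computed after adding 0.5 FPKM, so that changes of genes with low values come out too small. A gene is called where limma's p, adjusted over all genes tested, was under 0.05. Of the 41 genes 40 reached 0.5 FPKM in at least 3 libraries of every fit. The exception was Slc7a11, the cystine importer for glutathione synthesis, which stayed at or under 0.112 FPKM in 20 libraries. Its other values were 0.468 FPKM in iWAT GFP HFD 1, and 0.604, 0.198 and 0.924 FPKM in the 3 eWAT libraries of GFP mice on HFD. It was not tested.

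Each library held between 14145644 and 19726771 reads in genes, recovered from the FPKM values. The depot labels fit Tbx15, a factor of subcutaneous fat, which averaged 4.22 FPKM on HFD and 10.9 FPKM on chow in iWAT, against 0.0369 and 0.0256 FPKM in eWAT. The adipocyte hormone gene Adipoq was at 616 FPKM or more in all 24 libraries. Several libraries stood apart by transcripts of other tissues. Summed over 8 skeletal muscle markers, iWAT irisin chow 3 held 4052 FPKM, and summed over 8 B cell markers, iWAT GFP HFD 1 held 486 and eWAT GFP chow 1 held 132 FPKM. The library iWAT GFP HFD 1 also held 110.9 FPKM over 8 T and NK cell markers. Its sum over 10 adipocyte markers, 5387 FPKM, was the lowest in iWAT. Many members had their lowest value of all 24 libraries in it, among them Gpx1, Gpx3, Gpx4, Cat, Mgst1, Prdx1, Sod1 and Nfe2l2. Epididymal epithelium markers (8 genes) summed to 4049 FPKM in eWAT GFP HFD 3 and to at most 0.191 FPKM in any other library. Results are given with and without these 4 libraries where their omission ends a call. The eWAT library irisin HFD 2 also differed from its group, with 1148 FPKM over 12 macrophage markers, against 3454 and 4497 FPKM in irisin HFD 1 and 3. So did the iWAT library GFP chow 3, with 189 FPKM over these markers, against 1185 and 1190 FPKM in GFP chow 1 and 2. Its stromal progenitor markers summed to 275 FPKM, against 932 and 924 FPKM.

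In eWAT most of the 5 genes grouped here as NRF2 target enzymes (Nqo1, Hmox1, Ptgr1, Srxn1 and Txnrd1) were higher on HFD than on chow. Most glutathione S-transferases, the secreted peroxidase Gpx3 and the cytosolic dismutase Sod1 were lower. NRF2 also controls genes of other groups, such as Gclm and Prdx1, so these 5 do not stand for all its targets. The transferases were not sorted by whether NRF2 controls them. Taken as the mean effect over both vectors, 26 of the 40 tested members were called, 10 higher and 16 lower, where 39.3% of all genes tested were called in either direction (20.9% higher and 18.4% lower). The median log2 fold change of the members was -0.06, beside -0.00267 over all genes tested. Of the 5 NRF2 target enzymes 4 were called higher and none lower, of the 12 transferases 9 lower and 1 higher, of the 5 glutathione peroxidases 3 lower, and of the 4 tested genes of glutathione synthesis and recycling 1 higher. The 8 peroxiredoxins and thioredoxins split into 3 higher and 3 lower, and the 4 dismutases and catalase into 1 higher and 1 lower.

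**Figure D1:**
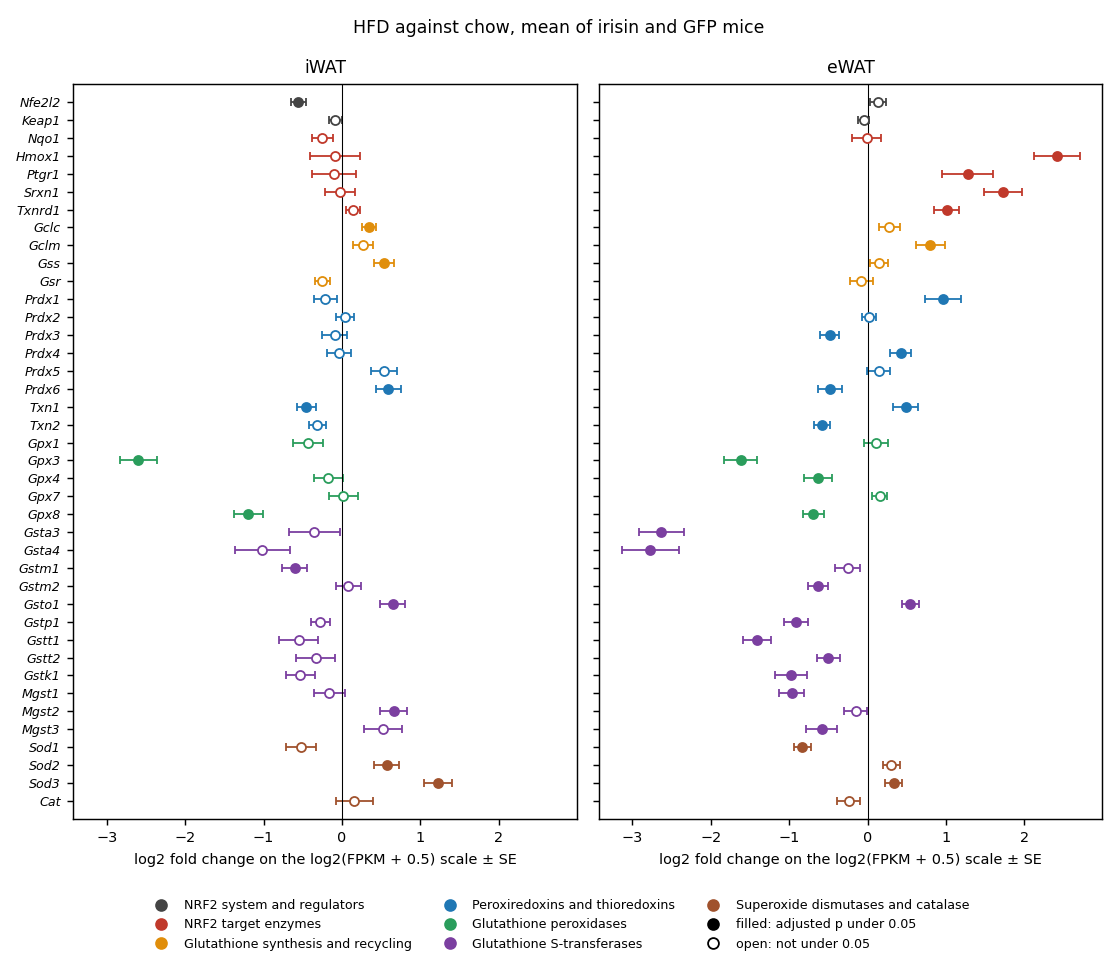
Log2 fold change of each tested gene on HFD against chow (x axis, log2(FPKM + 0.5) scale, mean of irisin and GFP mice, bars 1 SE), in iWAT on the left and eWAT on the right, coloured by role, with filled points for genes with an adjusted p under 0.05. In eWAT most red NRF2 target enzymes lie to the right, up to 2.41 for Hmox1, and most purple transferases to the left, down to -2.77 for Gsta4. In iWAT Gpx3 lies farthest left at -2.60.

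Hmox1 encodes haem oxygenase, which breaks haem down to biliverdin, iron and carbon monoxide (ENSMUSG00000005413, chromosome 8, 75093621 to 75100589, plus strand, as the deposited table gives it). In eWAT it had 68.0, 35.5 and 114.5 FPKM in irisin mice on HFD and 201, 96.2 and 272 FPKM in GFP mice on HFD, against 17.1, 20.97 and 22.2 FPKM in irisin mice on chow and 18.3, 21.8 and 18.2 FPKM in GFP mice on chow. Every HFD library lay above every chow library, and the lowest HFD library was irisin HFD 2. The log2 fold change was 2.41 ± 0.29 (adjusted p = 0.000196, 5.31-fold).

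Srxn1 encodes sulfiredoxin, which restores over-oxidised peroxiredoxins. It had 22.9, 14.0 and 40.5 FPKM in irisin mice on HFD and 75.5, 34.5 and 65.4 FPKM in GFP mice on HFD, against 10.6, 10.4 and 10.8 FPKM in irisin mice on chow and 9.89, 11.5 and 10.5 FPKM in GFP mice on chow. Again no HFD library overlapped the chow libraries, and the log2 fold change was 1.73 ± 0.24 (adjusted p = 0.000423). Txnrd1, the cytosolic thioredoxin reductase, rose by 1.01 ± 0.16 (adjusted p = 0.000926). Ptgr1, a reductase of lipid aldehydes and prostaglandins, rose by 1.28 ± 0.33 (adjusted p = 0.0103). Its diets overlapped, at 7.63 to 39.7 FPKM on HFD and 4.38 to 8.10 FPKM on chow. The quinone reductase Nqo1, a classical NRF2 target, did not pass the test and had a log2 fold change of -0.01.

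Gclm, the regulatory subunit of the enzyme that starts glutathione synthesis, had 7.94, 8.25 and 9.26 FPKM in irisin mice on HFD and 19.4, 9.36 and 23.02 FPKM in GFP mice on HFD, against 6.73, 6.96 and 6.61 FPKM in irisin mice on chow and 5.08, 6.91 and 7.05 FPKM in GFP mice on chow. It rose by 0.80 ± 0.19 (adjusted p = 0.0063), with the largest values in GFP HFD 1 and 3. The other tested genes of glutathione synthesis and recycling, Gclc, Gss and Gsr, were not called. Nfe2l2 and Keap1 themselves were not called, with log2 fold changes of 0.13 and -0.05. In eWAT Nfe2l2 had 26.7, 18.9 and 27.7 FPKM in irisin mice on HFD and 35.3, 29.5 and 27.5 FPKM in GFP mice on HFD, against 26.7, 24.9 and 27.3 FPKM in irisin mice on chow and 24.6, 22.97 and 22.2 FPKM in GFP mice on chow, so the diets overlapped.

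**Figure D2:**
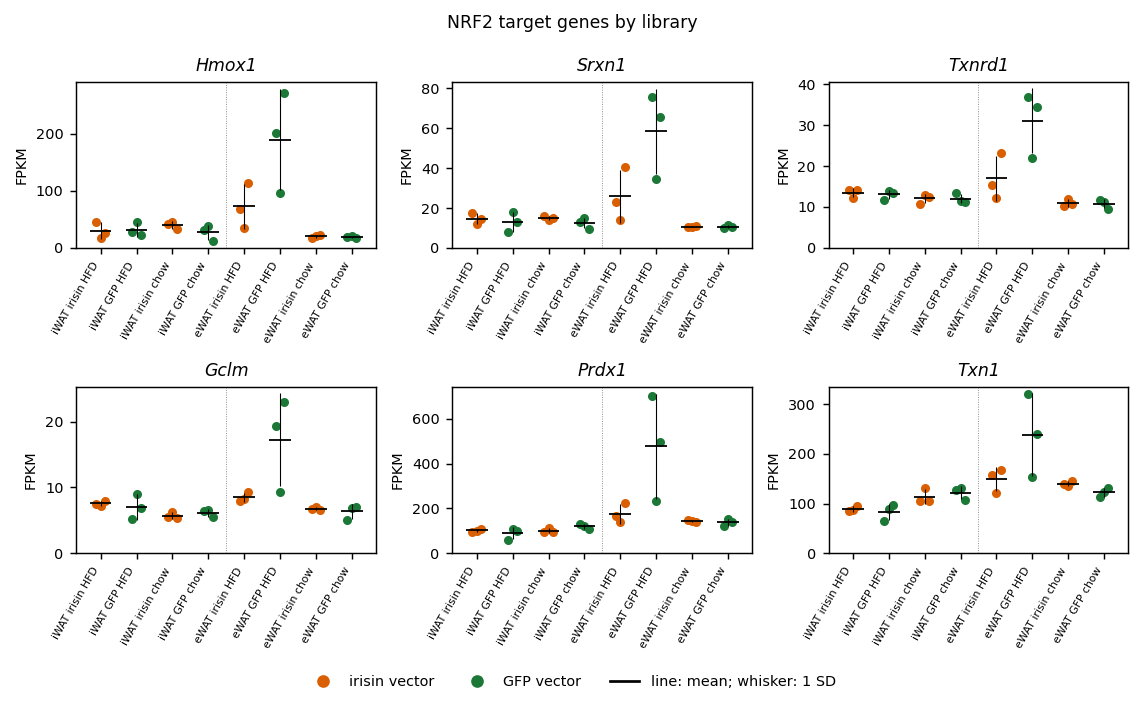
FPKM of 6 genes (y axes, linear, from 0) in each of the 24 libraries by group, with orange points for irisin, green points for GFP, black lines for the mean and whiskers for 1 SD. The GFP group on HFD in eWAT has the highest mean in each panel; for Hmox1 the 3 GFP libraries on HFD are at 96.2 to 272 FPKM, against at most 22.2 FPKM in the eWAT chow libraries.

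Prdx1, a cytosolic peroxiredoxin that NRF2 also controls, had 164, 139 and 224 FPKM in irisin mice on HFD and 702, 235 and 495 FPKM in GFP mice on HFD, against 146, 143 and 137 FPKM in irisin mice on chow and 122.7, 151 and 140 FPKM in GFP mice on chow. Irisin HFD 2 lay within the chow range and the 5 other HFD libraries above it. The log2 fold change was 0.96 ± 0.23 (adjusted p = 0.00709). Txn1, cytosolic thioredoxin, had 157, 122 and 168 FPKM in irisin mice on HFD and 321, 154 and 241 FPKM in GFP mice on HFD, against 140, 135 and 146 FPKM in irisin mice on chow and 113, 124 and 131 FPKM in GFP mice on chow. It rose by 0.49 ± 0.16 (adjusted p = 0.0314), and Prdx4, the peroxiredoxin of the endoplasmic reticulum, rose by 0.42 ± 0.13 (adjusted p = 0.026). The mitochondrial pair moved the other way: Prdx3 fell by 0.49 on the log2 scale and Txn2 fell by 0.59 (adjusted p = 0.00955 and 0.00141). Prdx6, which also acts on lipid peroxides, fell by 0.48 (adjusted p = 0.031). The diets overlapped for Txn1, Prdx4, Prdx3, Txn2 and Prdx6. For Prdx6 the highest HFD value, 103.4 FPKM, lay above every chow value (at most 99.2 FPKM).

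The promoters that follow are those of genes that were higher on HFD in eWAT and hold the core of the antioxidant response element, together with Gsta3, which holds it and was lower. The core was searched as TGACNNNGC on both strands, in windows from 250 bases before to 50 bases after a gene's start. It was found in 12.4% of 32851 mouse promoters of that length and in 14.0% of 27025 genes with at least 1 promoter. Of the 41 members 34 had a promoter in the table, and 8 of these (23.5%) held the core: Gclm, Prdx1, Srxn1 and Txnrd1 among 8 genes called higher in eWAT, Gsta3, Mgst1 and Sod1 among 13 called lower, and Nfe2l2 among 13 not called. Capitals mark the match, which is printed as its reverse complement where it lies on the other strand. Forms of the element with G at the fourth base were not searched. The sequences are from RefSeq (build GRCm38.p6, plus strand for these 5 genes, printed 5′ to 3′): Srxn1 at chr2:152105274-152105573, Gclm at chr3:122245307-122245606, Prdx1 at chr4:116685349-116685648, Txnrd1 at chr10:82858956-82859255 and Gsta3 at chr1:21240335-21240634.
Srxn1: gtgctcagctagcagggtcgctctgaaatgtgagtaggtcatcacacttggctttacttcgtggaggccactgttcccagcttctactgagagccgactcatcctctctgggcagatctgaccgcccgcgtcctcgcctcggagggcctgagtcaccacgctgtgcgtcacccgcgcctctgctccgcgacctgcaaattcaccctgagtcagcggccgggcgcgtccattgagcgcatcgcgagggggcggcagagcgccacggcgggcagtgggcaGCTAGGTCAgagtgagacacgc
Gclm: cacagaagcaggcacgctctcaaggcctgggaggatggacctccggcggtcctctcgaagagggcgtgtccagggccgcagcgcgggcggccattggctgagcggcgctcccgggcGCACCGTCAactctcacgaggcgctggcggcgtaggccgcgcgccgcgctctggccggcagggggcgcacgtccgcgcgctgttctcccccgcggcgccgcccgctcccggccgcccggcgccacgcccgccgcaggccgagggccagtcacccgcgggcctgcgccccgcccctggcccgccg
Prdx1: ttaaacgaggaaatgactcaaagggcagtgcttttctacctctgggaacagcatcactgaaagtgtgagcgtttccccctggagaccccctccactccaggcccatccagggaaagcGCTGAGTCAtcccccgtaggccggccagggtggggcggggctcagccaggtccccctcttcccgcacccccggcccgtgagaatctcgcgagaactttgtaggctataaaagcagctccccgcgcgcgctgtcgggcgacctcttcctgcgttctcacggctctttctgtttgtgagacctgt
Txnrd1: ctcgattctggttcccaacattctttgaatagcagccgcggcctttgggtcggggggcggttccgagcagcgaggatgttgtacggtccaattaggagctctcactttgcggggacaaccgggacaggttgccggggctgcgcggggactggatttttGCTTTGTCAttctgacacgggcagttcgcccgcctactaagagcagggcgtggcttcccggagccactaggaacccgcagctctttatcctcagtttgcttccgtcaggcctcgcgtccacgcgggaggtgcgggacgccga
Gsta3: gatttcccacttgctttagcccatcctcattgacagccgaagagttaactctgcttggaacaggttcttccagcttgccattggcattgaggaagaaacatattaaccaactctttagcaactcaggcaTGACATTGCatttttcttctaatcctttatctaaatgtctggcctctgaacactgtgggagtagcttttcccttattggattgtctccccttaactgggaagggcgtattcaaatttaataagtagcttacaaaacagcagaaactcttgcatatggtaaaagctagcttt
In Gsta3 the match lies on the strand of the gene, and in the other 4 on the opposite strand. A match is a description of letters, not a site bound by NRF2. The window of Txnrd1 lies at a start inside the gene. Gclc, Gsr, Gsta4, Gstt2, Hmox1, Prdx6 and Sod3 are the 7 members not in the table.

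Of all members, the glutathione S-transferases Gsta4 and Gsta3 had the largest falls in eWAT. Gsta3, an alpha-class transferase that also acts as a steroid isomerase, had 10.3, 25.5 and 5.14 FPKM in irisin mice on HFD and 6.92, 8.09 and 8.18 FPKM in GFP mice on HFD, against 56.1, 63.3 and 56.8 FPKM in irisin mice on chow and 53.8, 63.3 and 67.8 FPKM in GFP mice on chow. Every HFD library lay below every chow library, and the log2 fold change was -2.63 ± 0.29 (adjusted p = 0.000118). Gsta4, which conjugates the lipid peroxidation product 4-hydroxynonenal, had a log2 fold change of -2.77 ± 0.36 (adjusted p = 0.000281), and its levels were 1.51 to 12.3 FPKM on HFD, against 29.7 to 35.3 FPKM on chow. Gstt1 (-1.41 ± 0.18, adjusted p = 0.000228), the microsomal Mgst1 (-0.96 ± 0.16, adjusted p = 0.000938) and Gstp1 (-0.92 ± 0.15, adjusted p = 0.000996) fell as well. Gstk1, Gstm2, Mgst3 and Gstt2 were also called lower, between -0.97 and -0.50, and the omega-class Gsto1 was called higher (0.55 ± 0.11, adjusted p = 0.0033). The diets overlapped for Mgst1, Gstk1, Mgst3, Gstt2 and Gsto1. The highest HFD value lay above every chow value for Gstk1 (44.8 against at most 43.0 FPKM) and Mgst3 (153.6 against at most 144.2 FPKM). Gstm1 and Mgst2 were not called. Gstm1 had 197, 373 and 233 FPKM in irisin mice on HFD and 217, 190 and 202 FPKM in GFP mice on HFD, against 249, 260 and 291 FPKM in irisin mice on chow and 234, 281 and 335 FPKM in GFP mice on chow. Gstm1 and Gstm2, and Gstp1 and its paralog Gstp2, are near copies, so the reads may not be split between them without error.

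Of the 5 glutathione peroxidases 3 were called lower in eWAT and none higher. Gpx3, the secreted peroxidase of plasma, had 257, 287 and 144 FPKM in irisin mice on HFD and 209, 245 and 141 FPKM in GFP mice on HFD, against 694, 567 and 680 FPKM in irisin mice on chow and 493, 564 and 867 FPKM in GFP mice on chow. The diets did not overlap, and Gpx3 fell by 1.62 on the log2 scale (SE 0.21, adjusted p = 0.000281). Gpx8 of the endoplasmic reticulum fell by 0.69, and Gpx4, which reduces lipid peroxides in membranes and guards against ferroptosis, fell by 0.63 (adjusted p = 0.00202 and 0.0145). For Gpx4 the diets overlapped: irisin HFD 2, at 557 FPKM, lay above every chow library (396 to 533 FPKM). Gpx1, the abundant cytosolic form, was not called: it had 584, 835 and 646 FPKM in irisin mice on HFD and 851, 550 and 627 FPKM in GFP mice on HFD, against 607, 586 and 702 FPKM in irisin mice on chow and 515, 601 and 778 FPKM in GFP mice on chow. Among the dismutases, which turn superoxide into hydrogen peroxide, Sod1 fell and the extracellular Sod3 rose. Sod1 had 66.9, 94.7 and 57.9 FPKM in irisin mice on HFD and 63.3, 58.9 and 60.5 FPKM in GFP mice on HFD, against 124, 126 and 125 FPKM in irisin mice on chow and 109, 114 and 112 FPKM in GFP mice on chow (log2 fold change -0.83 ± 0.11, adjusted p = 0.00025). Sod3 had 178, 218 and 157 FPKM in irisin mice on HFD and 128, 157 and 136 FPKM in GFP mice on HFD, against 120, 133 and 115 FPKM in irisin mice on chow and 115, 153 and 126 FPKM in GFP mice on chow, and its groups overlapped (0.34 ± 0.11, adjusted p = 0.03).

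**Figure D3:**
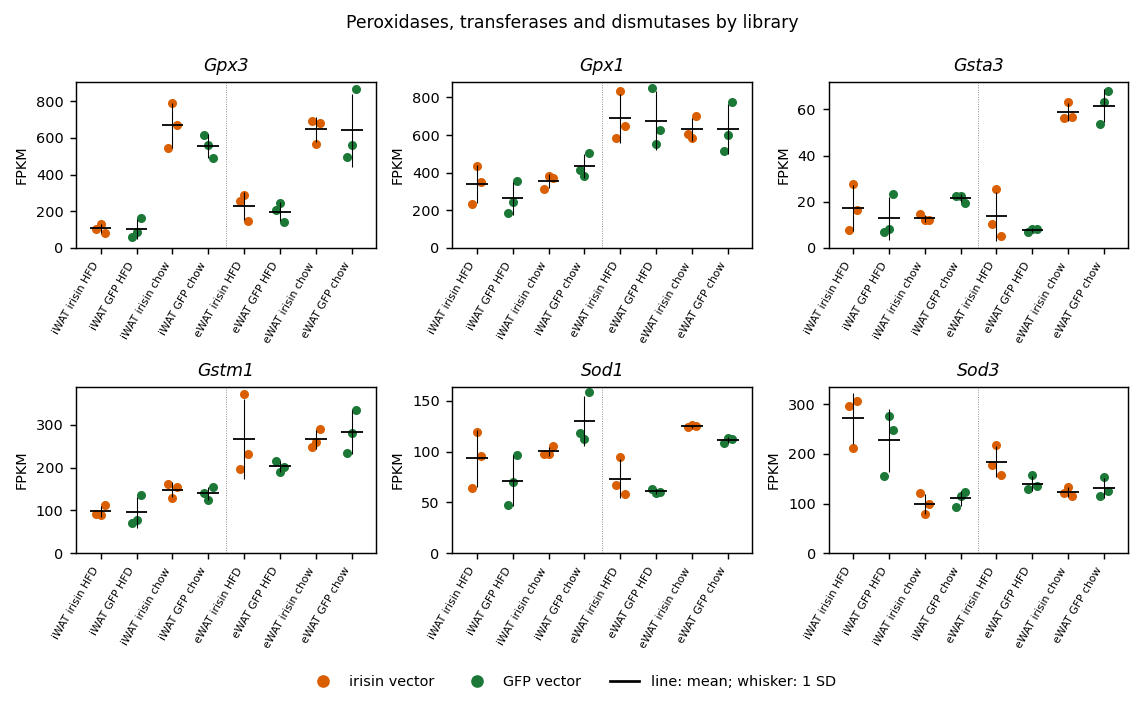
FPKM of 6 genes (y axes, linear, from 0) in each of the 24 libraries by group, with orange points for irisin, green points for GFP, black lines for the mean and whiskers for 1 SD. Gpx3 is lower on HFD in both depots, Gsta3 is at 53.8 FPKM or more only in the eWAT chow libraries, and the mean of Sod3 is highest in the irisin group on HFD in iWAT.

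Direction was kept by all 26 members in the 12 fits that left out 1 eWAT library each, and 20 of the 26 were called in every one of them, with 21 to 29 members called in all. The 6 that were not always called were Prdx4, Prdx6, Txn1, Gstt2, Mgst3 and Sod3. Leaving out any eWAT library other than irisin HFD 2 ended at least 1 of these 6 calls. Without the 4 libraries rich in other tissues 22 of the 26 remained called, and Prdx4, Prdx6, Txn1 and Sod3 were not (adjusted p = 0.0643, 0.0636, 0.11 and 0.0946).

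Macrophage transcripts moved with diet in eWAT in the same direction as the NRF2 target enzymes. The 12 macrophage markers summed to 3454, 1148 and 4497 FPKM in irisin mice on HFD and 6370, 4267 and 4863 FPKM in GFP mice on HFD, against 644 to 1206 FPKM on chow, and 11 of the 12 were called higher and 1, Cd163, lower. The 10 adipocyte markers summed to 6395, 12230 and 5171 FPKM in irisin mice on HFD and 4622, 5118 and 4363 FPKM in GFP mice on HFD, against 7407 to 9617 FPKM on chow, with 7 called lower and 1, Lep, higher. Adipoq averaged 897 FPKM on HFD and 2015 FPKM on chow. In irisin HFD 2, the HFD library with the fewest macrophage and the most adipocyte transcripts, Hmox1, Srxn1, Txnrd1 and Prdx1 had their lowest HFD values, and Gsta3, Gsta4, Gstk1 and Sod1 their highest. Not every called member did so. Sod3, called higher on HFD, had its highest HFD value in that library (218 FPKM). Gclm, also called higher, had its lowest in irisin HFD 1 (7.94 FPKM). All 6 mesothelial markers were called lower. In bulk tissue fewer cells of a type and less RNA per cell cannot be told apart, and the part of these cell types in the results was not tested.

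**Figure D4:**
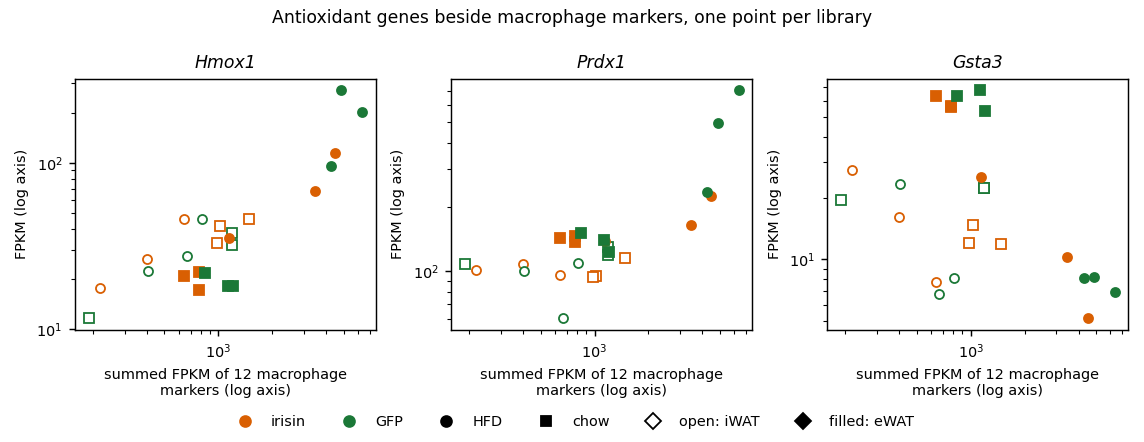
FPKM of Hmox1, Prdx1 and Gsta3 (y axes, log scale) against the summed FPKM of 12 macrophage markers (x axes, log scale), with 1 point per library, orange for irisin, green for GFP, circles for HFD, squares for chow, open for iWAT and filled for eWAT. Among filled circles the library at 1148 FPKM of macrophage markers has the lowest Hmox1 and Prdx1 and the highest Gsta3.

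The diet effect in eWAT was also taken in each vector group alone. In irisin mice 14 of 40 were called, 4 higher and 10 lower, where 17.4% of all genes were called (9.47% higher and 7.93% lower). In GFP mice 21 of 40 were called, 7 higher and 14 lower, where 26.5% of all genes were called (14.7% higher and 11.8% lower). The members called in the same direction in both were 11, which are 78.6% of the calls in irisin mice and 52.4% of those in GFP mice, where over all genes the shares were 75.5% and 49.6%. Hmox1 had a log2 fold change of 1.68 ± 0.41 (adjusted p = 0.021) in irisin mice and 3.14 ± 0.41 (adjusted p = 0.00103) in GFP mice. Srxn1 had 1.12 ± 0.35 (adjusted p = 0.0479) in irisin mice and 2.33 ± 0.35 (adjusted p = 0.00159) in GFP mice. Txnrd1 (1.45 ± 0.23), Gclm (1.30 ± 0.26), Prdx1 (1.65 ± 0.32), Ptgr1 (1.93 ± 0.46) and Txn1 (0.90 ± 0.22) were called in GFP mice and not in irisin mice. Gsta3 had a log2 fold change of -2.35 ± 0.40 in irisin mice and -2.91 ± 0.40 in GFP mice, Gsta4 of -2.49 ± 0.51 in irisin mice and -3.06 ± 0.51 in GFP mice, and Gpx3 of -1.55 ± 0.30 in irisin mice and -1.68 ± 0.30 in GFP mice. Gstt1 had -1.45 ± 0.25 in irisin mice and -1.37 ± 0.25 in GFP mice, and Sod1 had -0.80 ± 0.15 in irisin mice and -0.87 ± 0.15 in GFP mice. The remaining members called in both were Gstp1, Gstm2, Mgst1 and Gpx8, all lower. Txn2, Gstk1, Prdx3, Gpx4 and Mgst3 were called lower in GFP mice and not in irisin mice. Gsto1, Gstt2 and Sod3 were called in irisin mice and not in GFP mice. The vector by diet interaction, which tests these differences, called 0 of 40 members and 1 gene in all (0.00614%). The smallest p among the members was that of Prdx1 (difference -1.38 ± 0.46, adjusted p = 0.908), then Gsr (-0.85 ± 0.29, adjusted p = 0.908).

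The count in irisin mice depended on single libraries. It was 23 without irisin HFD 2, and 6, 6, 6 and 5 without irisin HFD 1 and without irisin chow 1, 2 and 3. Of the 14, those called in each of the 6 fits that left out 1 library were Gsta3, Gsta4, Gstt1, Gpx3 and Sod1. In irisin mice Hmox1 and Srxn1 were called in 1 of these 6 fits, the one without irisin HFD 2, where their log2 fold changes were 2.12 and 1.48. In the others their adjusted p went up to 0.0669 for Hmox1 and 0.128 for Srxn1, and Srxn1 was also not called without the libraries rich in other tissues (adjusted p = 0.0678). In GFP mice 16 to 21 members were called in such fits, and 15 of the 21 in each. The calls of Ptgr1, Prdx3, Gpx4, Gpx8, Gstm2 and Mgst3 were lost at least once, without GFP HFD 1, 2 or 3 or GFP chow 2 or 3. Without the libraries rich in other tissues 16 of the 21 were called, and Ptgr1, Txn1, Prdx3, Gpx4 and Gpx8 were not (adjusted p = 0.0934, 0.0952, 0.0606, 0.0695 and 0.0591).

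In iWAT none of the 5 genes grouped as NRF2 target enzymes was called for diet, while 12 members of other groups were. As the mean over both vectors, these were 7 higher and 5 lower of 40, where 17.5% of all genes were called (9.45% higher and 8.02% lower). Sod3, Gss, Gsto1, Mgst2, Gclc, Prdx6 and Sod2 rose, and Gpx3, Gpx8, Nfe2l2, Txn1 and Gstm1 fell. Gclc, a gene of glutathione synthesis that NRF2 also controls, was thus among the 12. Gpx3 had 102, 132 and 83.6 FPKM in irisin mice on HFD and 59.1, 89.4 and 165 FPKM in GFP mice on HFD, against 547, 791 and 668 FPKM in irisin mice on chow and 618, 563 and 490 FPKM in GFP mice on chow. Its groups did not overlap, and it fell by 2.60 on the log2 scale (SE 0.23, adjusted p = 0.000272). Gpx8 fell by 1.19 (SE 0.18, adjusted p = 0.0022). Sod3 had 296, 213 and 307 FPKM in irisin mice on HFD and 155, 277 and 249 FPKM in GFP mice on HFD, against 120, 79.5 and 98.6 FPKM in irisin mice on chow and 93.8, 114 and 123.0 FPKM in GFP mice on chow. Each HFD library lay above each chow library (1.23 ± 0.18, adjusted p = 0.00149).

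Nfe2l2, the gene of NRF2 itself, had 17.8, 16.8 and 16.0 FPKM in irisin mice on HFD and 15.0, 17.4 and 15.6 FPKM in GFP mice on HFD in iWAT, against 26.8, 28.4 and 24.9 FPKM in irisin mice on chow and 22.1, 25.9 and 19.0 FPKM in GFP mice on chow. The diets did not overlap, and Nfe2l2 fell by 0.56 on the log2 scale (SE 0.09, adjusted p = 0.00338). Of the 5 genes grouped here as NRF2 target enzymes 0 were called by limma, with log2 fold changes from -0.25 to 0.14 and no unadjusted p under 0.05. Hmox1 had 46.3, 17.7 and 26.5 FPKM in irisin mice on HFD and 27.7, 45.9 and 22.5 FPKM in GFP mice on HFD, against 41.6, 46.1 and 33.1 FPKM in irisin mice on chow and 32.2, 37.9 and 11.7 FPKM in GFP mice on chow.

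Of the glutathione makers, Gss, which adds the last amino acid, rose by 0.54 ± 0.13 and Gclc, the catalytic subunit of the first step, by 0.34 ± 0.09 (adjusted p = 0.0165 and 0.026). Gss shares 22544 bases with Acss2 on the opposite strand, which averaged 18.0 FPKM, and the sources used here do not say whether counting used strand. Mgst2 (0.66 ± 0.17, adjusted p = 0.0244) and Gsto1 (0.65 ± 0.16, adjusted p = 0.0189) rose. Gstm1 had 91.3, 90.3 and 112 FPKM in irisin mice on HFD and 70.3, 78.5 and 137 FPKM in GFP mice on HFD, against 161, 129 and 156 FPKM in irisin mice on chow and 140, 125 and 155 FPKM in GFP mice on chow, and fell by 0.61 (adjusted p = 0.0272). Txn1 fell by 0.46 (adjusted p = 0.0256). Prdx6 and the mitochondrial dismutase Sod2 rose by 0.59 ± 0.16 and 0.57 ± 0.16 (adjusted p = 0.0285 and 0.031).

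In the 12 fits that left out 1 iWAT library each, 5 to 15 members were called, with 5 without GFP chow 1 and 7 without irisin chow 1. Gpx3, Gpx8, Sod3, Nfe2l2 and Gss were called in each of them. The other 7 lost their call in at least 1, and leaving out any iWAT library other than GFP HFD 1 ended at least 1 call. Without the libraries rich in other tissues 11 of the 12 remained called, and Gstm1 was not (adjusted p = 0.0685). In irisin mice alone 7 of 40 members were called, 4 higher and 3 lower, where 9.01% of all genes were called (4.82% higher and 4.19% lower). Gpx3 (-2.66 ± 0.33, adjusted p = 0.00305), Nfe2l2 (-0.65 ± 0.13, adjusted p = 0.0164) and Gpx8 (-1.05 ± 0.26, adjusted p = 0.0323) were lower. Sod3 (1.45 ± 0.25, adjusted p = 0.00895), Mgst2 (1.06 ± 0.24, adjusted p = 0.0246), Gss (0.77 ± 0.18, adjusted p = 0.0269) and Sod2 (0.93 ± 0.22, adjusted p = 0.0299) were higher. When any 1 of the 6 libraries was left out 2 to 4 members were called, with Gpx3 and Sod3 called each time. Without the libraries rich in other tissues 6 of the 7 were called, and Gpx8 was not (adjusted p = 0.0508). In GFP mice alone Gpx3 (-2.53 ± 0.33, adjusted p = 0.0118) and Gpx8 (-1.34 ± 0.26, adjusted p = 0.0256) were the 2 of 40 called, both lower, where 2.37% of all genes were called (1.44% higher and 0.924% lower). That count was 0 without GFP HFD 2 or GFP chow 1, 1 without GFP chow 2, 4 without GFP HFD 1 and 6 without GFP HFD 3. Without the libraries rich in other tissues Gpx8 was not called in GFP mice (adjusted p = 0.0815).

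In iWAT the macrophage markers summed to 218 to 812 FPKM on HFD and 189 to 1483 FPKM on chow. The chow library at 189 FPKM was GFP chow 3, and the others held 977 to 1483 FPKM, above every HFD library. As the mean over vectors 10 of 12 markers had a log2 fold change below 0, with 0 called by limma. The adipocyte markers summed to 5387 to 12570 FPKM on HFD and 5612 to 10570 FPKM on chow, with 1 of 10 called higher. Of 7 stromal progenitor markers 4 were called lower and 1 higher, of 5 tested erythroid markers 3 were called higher, and of 7 tested skeletal muscle markers 4 were called lower. The part of these cells in the iWAT results was not tested.

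Between the depots, 4 members were called in the same direction on HFD in iWAT and eWAT: Gpx3 and Gpx8 lower, Gsto1 and Sod3 higher. These are 33.3% of the 12 calls in iWAT and 15.4% of the 26 in eWAT, where over all genes the shares were 47.8% and 21.1%. Prdx6 and Txn1 were called in opposite directions. The depot by diet interaction, the iWAT effect minus the eWAT effect, was called for 17 of 40 members, 9 higher and 8 lower, where 16.1% of all genes were called (6.86% higher and 9.23% lower). The NRF2 target enzymes other than Nqo1, which was not called, differed by depot in the negative direction: Hmox1 -2.50 ± 0.46 (adjusted p = 0.00138), Srxn1 -1.75 ± 0.32 (adjusted p = 0.00143), Txnrd1 -0.87 ± 0.19 (adjusted p = 0.0047) and Ptgr1 -1.37 ± 0.46 (adjusted p = 0.0469). Nfe2l2 (-0.69 ± 0.14, adjusted p = 0.00218), Txn1 (-0.94 ± 0.20, adjusted p = 0.00399) and Prdx1 (-1.18 ± 0.28, adjusted p = 0.00806) differed the same way. Gsta3 (2.28 ± 0.46, adjusted p = 0.00274), Prdx6 (1.07 ± 0.23, adjusted p = 0.00414), Sod3 (0.89 ± 0.21, adjusted p = 0.00712) and Mgst2 (0.81 ± 0.23, adjusted p = 0.0233) differed in the positive direction. Of the remaining 6, Gpx3 was negative and Gsta4, Gstm2, Gstp1, Mgst1 and Mgst3 positive, so that 7 of the 12 transferases were called in the positive direction and none in the negative one. In the 24 fits without 1 library 11 to 19 members were called, and 10 of the 17 each time. Ptgr1, Gpx3, Gsta4, Gstm2, Gstp1, Mgst1 and Mgst3 lost their call in at least 1, leaving out any library other than iWAT GFP chow 3 ended at least 1 call, and the count was 11 without iWAT irisin chow 2, without iWAT GFP chow 1 or without eWAT GFP HFD 1. Without the 4 libraries rich in other tissues Ptgr1 and Gpx3 were not called (adjusted p = 0.151 and 0.0762). In the same comparison 11 of 12 macrophage markers were called lower and 6 of 10 adipocyte markers higher, and their part was not tested.

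On chow 6 of 40 members were lower in iWAT than in eWAT and none higher, where 9.82% of all genes were called and 5.59% were called lower: Gstm1 (-0.92 ± 0.16, adjusted p = 0.000601), Gsta3 (-1.82 ± 0.33, adjusted p = 0.000745), Gstm2 (-0.76 ± 0.15, adjusted p = 0.00137), Prdx6 (-0.79 ± 0.16, adjusted p = 0.00263), Gstp1 (-0.60 ± 0.14, adjusted p = 0.00727) and Gpx1 (-0.68 ± 0.18, adjusted p = 0.0169). Gpx1 was not called without eWAT GFP chow 3 (adjusted p = 0.0551). Of the cell markers, 6 of 6 mesothelial markers were called lower, 6 of 7 skeletal muscle markers higher, and 1 of 12 macrophage, 1 of 7 endothelial and 2 of 7 stromal progenitor markers higher, and 1 of 10 adipocyte markers lower in iWAT on chow. On HFD 19 of 40 were called, 7 higher and 12 lower, where 28.7% of all genes were called (12.8% higher and 15.9% lower). The lowest in iWAT relative to eWAT was Hmox1 (-1.85 ± 0.33, adjusted p = 0.000333), followed by Ptgr1 (-1.62 ± 0.32, adjusted p = 0.000999), Prdx1 (-1.53 ± 0.20, adjusted p = 1.88e-05) and Srxn1 (-1.41 ± 0.23, adjusted p = 0.000157). Gstm1 (-1.27 ± 0.16), Txn1 (-1.10 ± 0.14), Nfe2l2 (-0.71 ± 0.10), Gpx1 (-1.22 ± 0.18) and Txnrd1 (-0.73 ± 0.14) were lower too, with adjusted p between 1.48e-05 and 0.00052, as were Gpx3, Gclm and Prdx4, between -1.04 and -0.58. Higher in iWAT were Gsta4 (1.42 ± 0.38, adjusted p = 0.00853), Mgst3 (1.12 ± 0.24, adjusted p = 0.00149), Gstt1 (1.08 ± 0.23, adjusted p = 0.00149), Mgst2 (0.87 ± 0.16, adjusted p = 0.000629), Gstk1, Sod3 and Cat. The calls of Gstk1 and Cat were lost when single libraries were left out: iWAT irisin HFD 2 or GFP HFD 3 or eWAT irisin HFD 1 or 3 for both, eWAT GFP HFD 3 for Gstk1, and iWAT GFP HFD 2 and eWAT GFP HFD 1 or 2 for Cat. In the same comparison 11 of 12 macrophage and 6 of 6 mesothelial markers were called lower in iWAT on HFD, and 8 of 10 adipocyte, 7 of 7 endothelial and 4 of 5 tested erythroid markers higher. The part of these cells in the depot differences was not tested.

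Irisin against GFP gave no called member in either depot on either diet, and 0% of all genes were called in each of the 4 comparisons. In eWAT on HFD, 14 of 40 members had an unadjusted p under 0.05 by limma, where 9.28% of all genes did. In iWAT on HFD 0 members did, where 2.67% of all genes did, in eWAT on chow 1 (5.19% of all genes), and in iWAT on chow 0 (4.27% of all genes). Likewise voom on the recovered reads called 0 members in each. These counts do not show that the vectors act alike. In eWAT on HFD the 5 NRF2 target enzymes had log2 fold changes between -1.41 and -0.82, each with an unadjusted p under 0.05 and none called. The smallest p was that of Prdx1, at 164, 139 and 224 FPKM in irisin mice and 702, 235 and 495 FPKM in GFP mice. The groups did not overlap, with a log2 fold change of -1.33 ± 0.32 (adjusted p = 0.533). Txnrd1 was next, at 15.5, 12.3 and 23.2 FPKM in irisin mice and 36.9, 21.9 and 34.5 FPKM in GFP mice (-0.87 ± 0.23, adjusted p = 0.533), with irisin HFD 3 above GFP HFD 2. When GFP HFD 2 was left out, 4 members were called lower in irisin mice: Prdx1 (-1.77 ± 0.22, adjusted p = 0.0412), Ptgr1 (-1.99 ± 0.23, adjusted p = 0.0412), Gclm (-1.27 ± 0.15, adjusted p = 0.0412) and Gsr (-1.02 ± 0.13, adjusted p = 0.0417). That fit kept GFP HFD 1 and GFP HFD 3, and GFP HFD 3 is the library rich in epididymal epithelium markers. Of all libraries, GFP HFD 3 had the highest Gclm (23.02 FPKM) and Gsr (30.75 FPKM). GFP HFD 1 had the highest Prdx1 (702 FPKM) and Ptgr1 (39.67 FPKM). The part of the epididymal transcripts was not tested. No member was called when any other library was left out. The macrophage sums of these groups, 3454, 1148 and 4497 FPKM in irisin mice and 6370, 4267 and 4863 FPKM in GFP mice, overlapped, 11 of the 12 markers had a log2 fold change below 0 with none called, and their part was not tested.

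**Figure D5:**
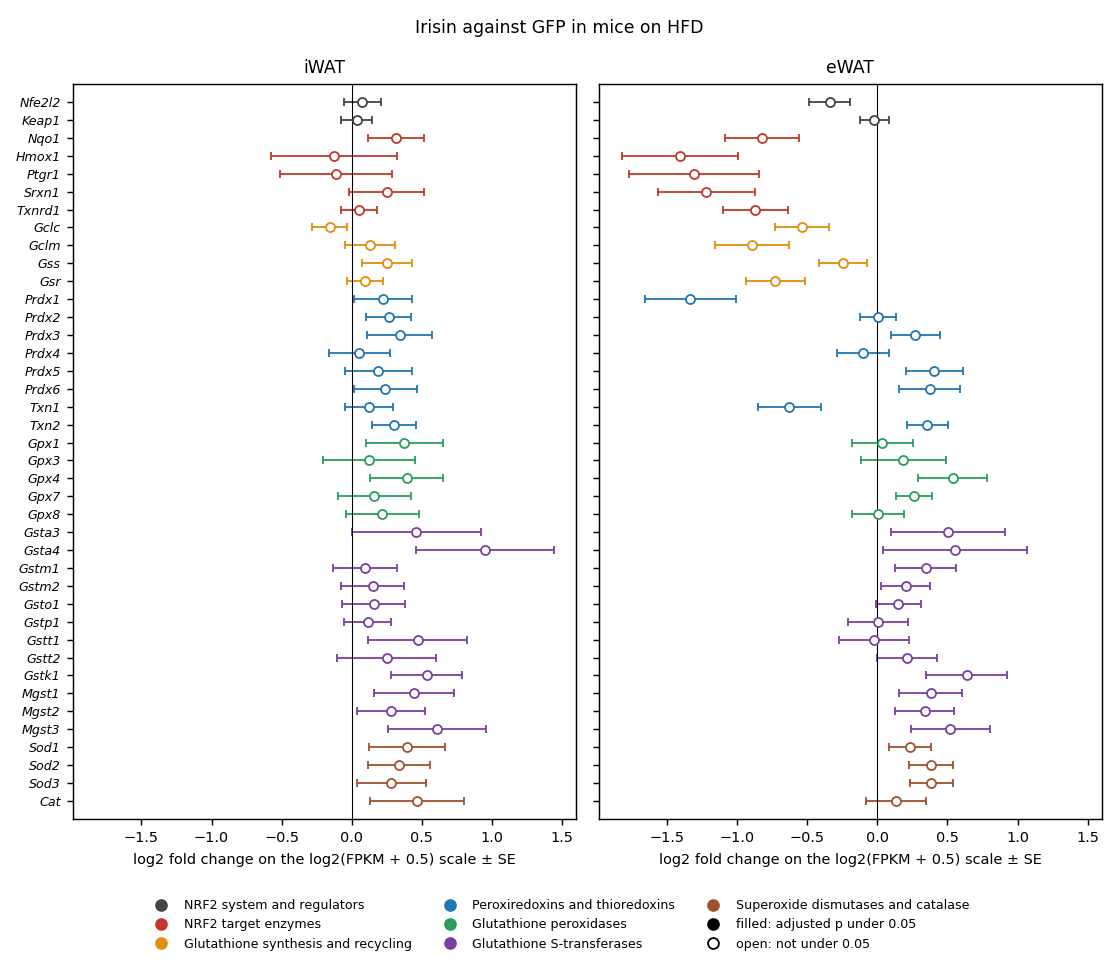
Log2 fold change of each tested gene in irisin against GFP mice on HFD (x axis, log2(FPKM + 0.5) scale, bars 1 SE; the x axis is shared), in iWAT on the left and eWAT on the right, coloured by role. All points are open, since no gene had an adjusted p under 0.05; in eWAT the 5 NRF2 target enzymes lie between -1.41 and -0.82, and in iWAT between -0.13 and 0.31.

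In iWAT on HFD the smallest p among the members were those of Gstk1, at 29.4, 45.5 and 38.1 FPKM in irisin mice and 16.9, 26.2 and 37.3 FPKM in GFP mice (0.53 ± 0.25, adjusted p = 0.946), and of Gsta4, at 8.52, 35.3 and 16.0 FPKM in irisin mice and 5.23, 6.57 and 17.8 FPKM in GFP mice (0.95 ± 0.49, adjusted p = 0.946). In both genes the groups overlapped. On chow the smallest p in iWAT were those of Mgst2 (-0.52 ± 0.24, adjusted p = 0.919) and Nfe2l2 (0.26 ± 0.13, adjusted p = 0.919), and in eWAT those of Gstt2 (0.70 ± 0.21, adjusted p = 0.938) and Keap1 (0.14 ± 0.10, adjusted p = 0.946). The vector by diet interaction in iWAT called 0 of 40 members and 0% of all genes, with Gstk1 (0.91 ± 0.36, adjusted p = 0.688) and Mgst2 (0.80 ± 0.34, adjusted p = 0.688) at the smallest p.

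Other genes of the pathway were followed on HFD in eWAT, where 39.3% of all genes were called (20.9% higher and 18.4% lower). Of 10 NADPH oxidase genes, part of which serve superoxide production in phagocytes, 7 were tested and 7 were called higher. Among them were Ncf1 at 1.66 ± 0.22 and Cybb at 2.07 ± 0.29. In the same comparison 11 of 12 macrophage markers were called higher, and their part in these results was not tested. Of 20 tested genes for other NRF2 targets and NADPH supply, 9 were called higher and 3 lower. They included the haem-pathway genes Blvra, biliverdin reductase (1.46 ± 0.13), and Slc48a1, a haem transporter (0.86 ± 0.09), and the epoxide hydrolase Ephx1 (0.97 ± 0.11). Of 13 NRF2 partners and repressors 4 were called higher and none lower, among them the small MAF gene Maff (0.96 ± 0.14), the kinase gene Gsk3b (0.53 ± 0.11) and the repressor Bach1 (0.58 ± 0.13). Of 39 tested genes of glutathione, thioredoxin and sulphur handling 7 were called higher and 11 lower, led by 5-oxoprolinase Oplah (-0.95 ± 0.16), glutaredoxin Glrx (0.90 ± 0.17) and the selenium carrier Selenop (0.74 ± 0.15).

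The same lists were followed in iWAT, where 17.5% of all genes were called (9.45% higher and 8.02% lower). Of 8 tested NADPH oxidase genes 1, Duox1, was called lower (-0.82 ± 0.25) and none higher. Of 20 tested other NRF2 target and NADPH genes 4 were called higher and 3 lower, with Blvra (0.97 ± 0.13), Osgin1, an oxidative stress response gene (1.24 ± 0.19), and Slc48a1 (1.03 ± 0.17) at the smallest p. Of 12 tested partners and repressors 3 were called higher and 2 lower, with Maff (0.76 ± 0.13) and Gsk3b (0.67 ± 0.14) higher and Mafg (-0.59 ± 0.10) lower. Of 39 tested genes of glutathione, thioredoxin and sulphur handling 4 were called higher and 5 lower, with Gstm7 (-0.93 ± 0.13) and Gstp2 (-1.15 ± 0.24) lower and the stress gene Sesn2 (1.02 ± 0.19) higher.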

How the data were processed

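Messenger RNA was purified with poly-T beads, per the labels' protocols. The submitters' processing notes name the aligner HISAT2 2.0.5 and the read counter featureCounts 1.5.0-p3. The deposited values are FPKM per gene that the authors computed. No genome build is named in the sources used, and the positions of 40 of the 41 genes equal those of GENCODE M21 (GRCm38). Another 8 columns equal group means and were not used. In each library 100% of values were whole multiples of 1 read (tolerance 0.01), which gave 14145644 to 19726771 reads a library. The depth implied by the FPKM values was 0.912 to 1.15 times these reads. It was lowest in iWAT irisin HFD 2, highest in iWAT GFP HFD 1, and 0.918 in eWAT irisin HFD 2. The sources used do not explain this factor.

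A gene entered a fit if 3 or more of its libraries reached 0.5 FPKM, which left 16125 genes for iWAT, 16274 for eWAT and 17687 where the depots were compared. The values were taken as log2(FPKM + 0.5) and tested with limma 3.58.1 (R 4.3.3, variance trend), fitting the 4 groups of a depot together, or 8 groups between depots. Each of the 15 comparisons had its own Benjamini-Hochberg adjustment across every gene in the fit. The code was tested on simulated data. The members and gene lists were chosen with earlier results of these data known, so their patterns are not independent support.

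In each comparison the called members are named, with values for up to 10 of the smallest adjusted p, or the 2 of smallest p where none was called. Some further called members are given with values, and the text adds members (Nqo1, Hmox1 in iWAT) after their values were seen. Symbols that occur more than once, such as Nnt, were left out of the lists. Of the 41 genes 14 share bases with another gene, and near-copies can exchange reads. Alternatives were other pseudocounts and filters, upper quartile scaling, a replicate block, voom on recovered reads, fits of only the groups compared, fits without 4 libraries rich in other tissues, and leaving out each library.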

Additional observations from a re-analysis of the deposited data

Results flagged for a closer look

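The diet effect of 17 members differed between the depots by a test of the difference itself, the depot by diet interaction of limma (iWAT effect minus eWAT effect, log2 scale). The difference was negative for Hmox1 (-2.50), Srxn1 (-1.75), Ptgr1 (-1.37), Prdx1 (-1.18), Gpx3 (-0.98), Txn1 (-0.94), Txnrd1 (-0.87) and Nfe2l2 (-0.69). It was positive for Gsta3 (2.28), Gsta4 (1.76), Mgst3 (1.11), Prdx6 (1.07), Sod3 (0.89), Mgst2 (0.81), Mgst1 (0.80), Gstm2 (0.71) and Gstp1 (0.64).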

How the results depend on the processing

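None of the called members, and none of the 2 members of smallest p in comparisons without a call, changed direction under the alternatives tried; the other members were not followed. Upper quartile scaling shifted the median of all genes by less than 0.1 log2 units in each comparison. The number of members called on HFD against chow in iWAT GFP mice (2) was 1 with no filter, 4 with voom and 0 with only the 2 groups compared, and 0 to 6 without single libraries. In iWAT irisin mice (7) it was 12 with only the 2 groups compared and 2 to 4 without single libraries. In eWAT irisin mice (14) it was 9 with no filter, 6 with only the 2 groups compared and 5 to 23 without single libraries. For the depot by diet interaction (17) it was 11 with no filter and 11 to 19 without single libraries. For the mean effect in iWAT (12) it was 9 with no filter, 18 with voom (11 of the 12 among them) and 5 to 15 without single libraries. For irisin against GFP on HFD in eWAT (0) it was 0 to 4 without single libraries. With no filter more genes enter the adjustment, and with only the 2 groups compared fewer libraries estimate the spread; the cause of the other shifts was not tested.

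The sources used do not say whether replicate numbers pair libraries, or whether both depots came from the same mice. Deviations of same-numbered libraries correlated between -0.35 and 0.33 over 36 pairs within depots, 11 of them over 0.1. Across depots they correlated between -0.17 and 0.36 over 12 pairs, 2 of them over 0.1. The highest of these was irisin HFD 2 of iWAT with irisin HFD 2 of eWAT. Such correlations cannot decide whether libraries share a mouse, since each group mean rests on 3 libraries. The main depot comparisons took all 24 libraries as independent. With the replicate block 14 members were called for diet in iWAT (12 without the block), 27 in eWAT (26) and 14 for the depot by diet interaction (17), and 0 for irisin against GFP on HFD in either depot. With 3 libraries a group, a change within the spread between libraries was not detectable. The SE beside each value gives its uncertainty, but a call also depends on the adjustment over all genes of a comparison. A member that was not called may thus lie outside the spread. Prdx1 in irisin against GFP mice on HFD in eWAT was not called, although its groups did not overlap.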
